A study of Homo sapiens with 6 samples.

Results

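The genes described here are the chemokines and chemokine receptors of MDA-MB-231 cells, a human triple-negative breast cancer cell line, in which HMGA2 was lowered with short hairpin RNAs. They were chosen by symbol, with earlier results of these data known. The rule took every gene named CCL, CXCL, CX3CL, XCL, CCR, CXCR, CX3CR, XCR or ACKR with a number, which gave 69 genes of 61806 in the table. RNA was sequenced from 3 lines with 2 libraries each, and the lines were made with lentiviral shRNA vectors and puromycin selection. The shNC line expressed a control hairpin, by its title (its library names read WT), while the shHMGA2-1 and shHMGA2-2 lines expressed different hairpins against HMGA2. Each knockdown line had been grown from a single clone per the study's methods, which do not say this of shNC, so that an effect of the hairpin and a property of the clone cannot be told apart. The libraries of a line were separate samples by their titles, but nothing in the sources used here says that they came from separate cultures, and p-values then measure only the spread between libraries.

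Chemokines are small secreted proteins that direct the movement of leukocytes and other cells along a gradient. CC and CXC ligands are named after the spacing of their first cysteines, and they signal through G protein-coupled receptors on the responding cell, whereas atypical receptors (ACKR) bind ligands without G protein signalling and remove them from the surroundings. Breast cancer cells can secrete CXCL8 and its relatives, whose receptors CXCR1 and CXCR2 are best known from neutrophils, and many of these ligand genes are induced through the transcription factor NF-kB. HMGA2 is a chromatin protein that binds the minor groove of stretches of A and T bases through its AT-hooks.

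The ligand genes CXCL8, CXCL1, CXCL2 and CXCL3 lie in a cluster on chromosome 4, and their promoters are shown because they share a short NF-kB motif. Promoter sequences were taken from RefSeq (GRCh38.p14) as windows of 300 bases, from 250 before to 50 after each start site. Entries were matched for 44 of the 69 genes, and for 10 of the 17 that exceeded 3 counts in any library. Capitals mark the NF-kB core GGAATTTCC, and each sequence reads 5′ to 3′ on the strand of the gene.
CXCL8, chr4:73740448-73740567, plus strand: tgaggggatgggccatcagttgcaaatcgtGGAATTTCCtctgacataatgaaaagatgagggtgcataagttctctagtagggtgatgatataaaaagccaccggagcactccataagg
CXCL1, chr4:73869285-73869404, plus strand: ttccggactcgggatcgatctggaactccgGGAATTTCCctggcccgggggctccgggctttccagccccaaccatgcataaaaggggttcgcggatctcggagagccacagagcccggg
CXCL2, chr4:74099183-74099302, minus strand: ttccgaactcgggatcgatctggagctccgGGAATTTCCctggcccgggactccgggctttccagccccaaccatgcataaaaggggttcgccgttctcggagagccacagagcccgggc
CXCL3, chr4:74038678-74038797, minus strand: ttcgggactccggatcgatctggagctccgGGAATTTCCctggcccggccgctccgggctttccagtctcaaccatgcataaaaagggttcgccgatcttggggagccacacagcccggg
This core, searched on both strands, occurred in 0.461% of 35116 promoter windows. It was found in 8 member genes, CXCL1, CXCL2, CXCL3, CXCL5, CXCL6, CXCL8, CXCL10 and CXCL11, all of them on chromosome 4. In CXCL8 it lay 91 to 83 bases before the start, and in CXCL1, CXCL2 and CXCL3 it began 77 or 78 bases before it. The whole windows of CXCL1 and CXCL3 were identical in 82.5% of aligned positions, those of CXCL2 and CXCL3 in 73.8% and those of CXCL1 and CXCL2 in 73.0%, while CXCL8 matched the other 3 in 46.0% to 47.5%. The CXCL8 window also held an AP-1 motif, TGANTCA, 137 to 131 bases before the start, which does not overlap the core and which occurred in 7.71% of all windows. Motifs for C/EBP (TTGCNNAA, in 10.5% of windows), STAT6 (TTCNNNNGAA, 6.44%) and the TATA box (TATAAA, 11.5%) were searched too, and among the 10 matched genes above 3 counts CXCL8, CXCL11 and CXCR4 held the TATA box, CXCL2 and CCL26 the C/EBP letters and CXCR6 the STAT6 letters. The AP-1 letters were also in CXCL11 and CXCR6. A match is a description of the letters and not evidence of binding.

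Runs of A and T were listed because of the DNA preference of HMGA2, and 3 windows are shown from genes whose levels differed between lines. The longest run of A or T in each is in capitals.
CXCL8, chr4:73740319-73740403, plus strand: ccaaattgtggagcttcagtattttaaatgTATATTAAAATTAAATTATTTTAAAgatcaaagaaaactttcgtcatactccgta
CCL28, chr5:43397299-43397375, minus strand: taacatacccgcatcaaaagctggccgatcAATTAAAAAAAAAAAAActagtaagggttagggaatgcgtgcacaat
CCL26, chr7:75789890-75789958, minus strand: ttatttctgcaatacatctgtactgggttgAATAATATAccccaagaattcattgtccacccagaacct
The run in the CXCL8 promoter had 25 bases, 220 to 196 before the start, and 0.288% of all windows held a run as long, the median window having 6. CCL28 has 2 start sites, and the window shown is that of the site inside the gene, where the run had 17 bases, which 2.92% of windows reached. At the other site, at the 5′ end of the gene, the longest run had 12 bases, which 11.8% of windows reached. CCL26 had a run of 9 bases, as long as in 27.9% of windows, and CXCL1, CXCL2 and CXCL3 had runs of 6, 6 and 7 bases. Long runs also occurred in member genes that were not detected. A window of CCR3 held 24 bases, which 0.393% of windows reached, and windows of CXCL13 and XCL2 held 15 each (4.97%). No binding of HMGA2 was measured here.

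Libraries held 16461178 to 17167293 counts, with 6.74% to 7.86% from mitochondrial genes. Genes were compared with the quasi-likelihood test of edgeR, and a gene was called, and is said to have risen or fallen, where its adjusted p was under 0.05 and its change at least 2-fold. HMGA2 itself gave 2126 and 2161 counts in the controls, 858 and 989 with shHMGA2-1 and 435 and 482 with shHMGA2-2. It fell by 1.29 (SE 0.09) on the log2 scale in shHMGA2-1 and by 2.31 (SE 0.09) in shHMGA2-2 (edgeR, adjusted p = 2.17e-11 and 2.11e-16), and the lines differed from each other (log2 -1.01, SE 0.10, adjusted p = 3.07e-09). The 5 markers of MDA-MB-231 cells, VIM, CD44, AXL, MSN and CAV1, summed to 4954 to 6486 CPM, the depth-scaled count, per library. Of 15 leukocyte markers, 7 to 10 were at 0 in each library and their sum was 3.14 to 3.69 CPM in shNC, 3.34 to 4.71 in shHMGA2-1 and 1.89 to 2.60 in shHMGA2-2. PTPRC, the pan-leukocyte gene, had at most 2 counts, and CD3D, CD3E, CD48, LCP2 and MS4A1 were at 0 throughout. Other markers of this list were read. CSF1R had 26 and 6 counts in shNC, HCLS1 had 21 and 15 there, ITGAM had 16 and 5 in shHMGA2-2 and CORO1A had 38 and 70 in shHMGA2-1. CD68 and CD14 had at most 10 and 8 counts. In these bulk samples, fewer cells that make a transcript and less of it per cell cannot be told apart.

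Most of the family was not detected at this depth. A limit of 3 counts, which a count of 0 allows and which equals 0.172 to 0.185 CPM per library, was exceeded in at least 1 library by 17 of the 69 genes. The other 52 are stated as not detected, with 34 of them at 0 in every library and 18 at 1 to 3 counts at most. Of the 17 genes, 10 passed the count filter of edgeR and were tested, and 7 reached a mean FPKM of at least 1 in any line.

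By class, 4 of 26 CC ligands, 6 of 14 CXC ligands, 5 of 18 receptors and 2 of 4 atypical receptors exceeded the limit. The CX3C ligand, the 2 XC ligands and the 4 pseudogenes did not. CXCR2, the main receptor of CXCL1, CXCL2 and CXCL3, was at 0 in all 6 libraries, and CXCR1, which CXCL8 also binds, had 2 counts in 1 shHMGA2-1 library and 0 elsewhere. CXCL12, the ligand of CXCR4, had 1 count in 1 library. At this depth these transcripts were not detectable, which allows up to 3 counts in a library.

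The ligand output of the 3 lines differed in amount and in order. Summed over all ligand genes, FPKM, which is comparable between genes because it is per length, came to 36.65 and 37.25 for shNC, to 21.90 and 25.22 for shHMGA2-1 and to 113.4 and 117.55 for shHMGA2-2. Both shHMGA2-1 libraries lay below and both shHMGA2-2 libraries above the controls, with no overlap. CXC ligands made up nearly all of the sum, at 34.19 and 35.52, 19.63 and 22.00, and 109.97 and 114.19 FPKM in the same order. CC ligands summed to 2.46 and 1.73, 2.27 and 3.22, and 3.43 and 3.34 FPKM, and shHMGA2-1 overlapped the controls on this scale. In reads, CC ligands summed to 87 and 69, 169 and 233, and 223 and 216 counts, and both knockdown lines were above the controls. CCL28 alone gave 67 and 56, 165 and 226, and 203 and 194 of these counts, while CCL26 went the other way, with 18 and 11, 0 and 1, and 0 and 0. Receptors summed to 28 and 40, 44 and 46, and 32 and 60 counts.

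**Figure D1:**
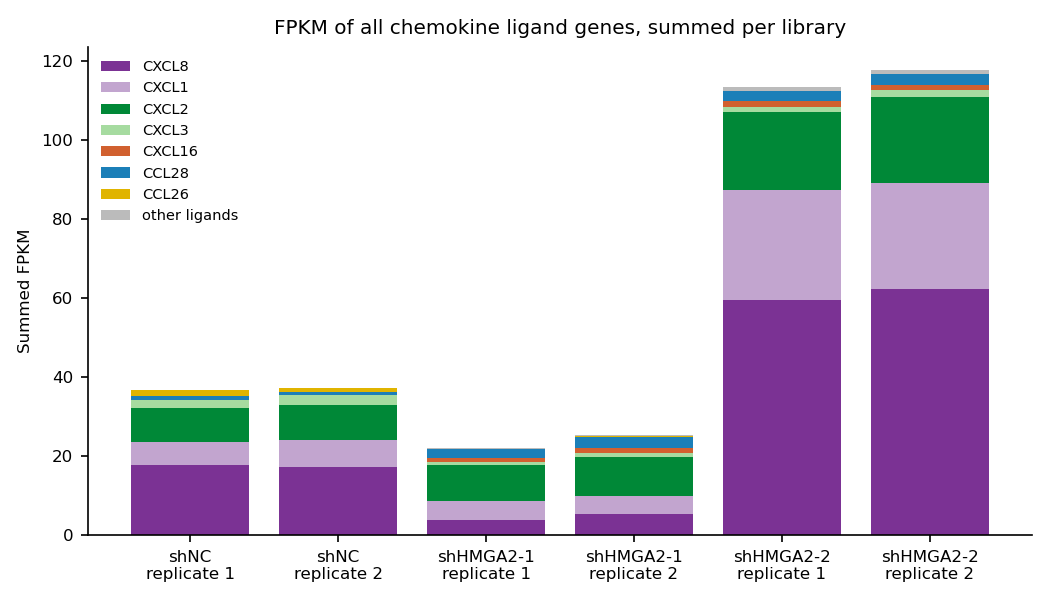
Bars show the FPKM of all chemokine ligand genes summed in each of the 6 libraries, with the share of each gene as a coloured segment. CXCL8, CXCL1 and CXCL2 fill most of every bar, and the bars reach 36.65 and 37.25 (shNC), 21.90 and 25.22 (shHMGA2-1) and 113.4 and 117.55 (shHMGA2-2).

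CXCL8 had the highest mean level of the family in shNC, with 17.4 ± 0.290 FPKM (SD, n = 2), followed by CXCL2 with 8.70 ± 0.212 and CXCL1 with 6.32 ± 0.544. In shHMGA2-1 CXCL2 came first with 9.62 ± 0.516 FPKM, and CXCL8 with 4.61 ± 1.17 and CXCL1 with 4.61 ± 0.262 did not differ beyond their spread. In shHMGA2-2 the order was CXCL8 with 60.8 ± 1.99, CXCL1 with 27.3 ± 0.742 and CXCL2 with 20.8 ± 1.41 FPKM. CCL28 ranked next in both knockdown lines, and below CXCL3 and CCL26 in shNC.

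Of the ligands that bind CXCR2, CXCL8 moved in opposite directions in the 2 knockdown lines, CXCL1 and CXCL2 rose in shHMGA2-2 and CXCL3 fell in shHMGA2-1. CXCL8, also known as interleukin 8, gave 775 and 757 counts (shNC), 168 and 241 (shHMGA2-1) and 2529 and 2669 (shHMGA2-2). All libraries of the first knockdown line lay below and all of the second above the controls. It fell by 1.98 (SE 0.12) on the log2 scale in shHMGA2-1 and rose by 1.68 (SE 0.10), or 3.21-fold, in shHMGA2-2 (edgeR, adjusted p = 3.43e-12 and 2.82e-13). Between the knockdown lines the difference was 12.7-fold (log2 3.66, SE 0.11, edgeR adjusted p = 3.07e-18).

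CXCL1, a neutrophil attractant of the GRO group, had 137 and 155 counts in the controls, 112 and 103 with shHMGA2-1 and 624 and 605 with shHMGA2-2. The shHMGA2-2 libraries were far above the rest, and the shHMGA2-1 libraries were a little below the controls without overlap. It rose by 1.99 (SE 0.13) in shHMGA2-2, a 3.98-fold change with an adjusted p of 1.20e-12 in edgeR, and in shHMGA2-1 the log2 difference of -0.52 (SE 0.15, adjusted p = 0.0100) was under 2-fold.

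CXCL2, of the same group, had 203 and 210 counts (shNC), 222 and 239 (shHMGA2-1) and 456 and 506 (shHMGA2-2). The shHMGA2-1 counts were slightly above the controls and overlapped them as CPM, and the shHMGA2-2 libraries were above all others, with a rise of 1.14 (SE 0.12) on the log2 scale (edgeR, adjusted p = 1.44e-08). The log2 difference of shHMGA2-1 was 0.08 (SE 0.13, adjusted p = 0.682). Between the knockdown lines it was 1.06 (SE 0.12, edgeR adjusted p = 5.83e-08), which came to 0.99, under 2-fold, without shHMGA2-1 replicate 1.

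CXCL3, the remaining GRO gene, was not called higher in shHMGA2-2 against shNC. It gave 74 and 100 counts in the controls, 24 and 30 with shHMGA2-1 and 44 and 66 with shHMGA2-2. Both knockdown lines lay below the controls without overlap. It fell by 1.76 (SE 0.28) in shHMGA2-1 (edgeR, adjusted p = 2.17e-05), and the difference of -0.74 (SE 0.25, adjusted p = 0.0127) in shHMGA2-2 was under 2-fold, which became -1.05 without shHMGA2-2 replicate 2 (adjusted p = 0.0131, and 0.00423 to 0.189 over all alternatives). It was 1.02 (SE 0.30) higher in shHMGA2-2 than in shHMGA2-1, with an adjusted p of 0.00598 in edgeR. That call was lost without shHMGA2-2 replicate 2 (log2 0.72, adjusted p = 0.132) and without shHMGA2-1 replicate 1 (log2 0.85, adjusted p = 0.0490), and under limma on log2(FPKM + 1) and log2(FPKM + 0.1) the difference was under 2-fold (log2 0.54 and 0.96), with adjusted p of 0.00177 to 0.132 over all alternatives. Transcripts of these genes share short stretches. Of the sequences of 50 bases in CXCL2, 12.5% also occur in another gene and 8.99% in CXCL3. Of those in CXCL1, 4.81% occur in CXCL2. Such stretches fit both genes, and how reads there were counted was not tested. CXCL8 shares none with another gene.

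**Figure D2:**
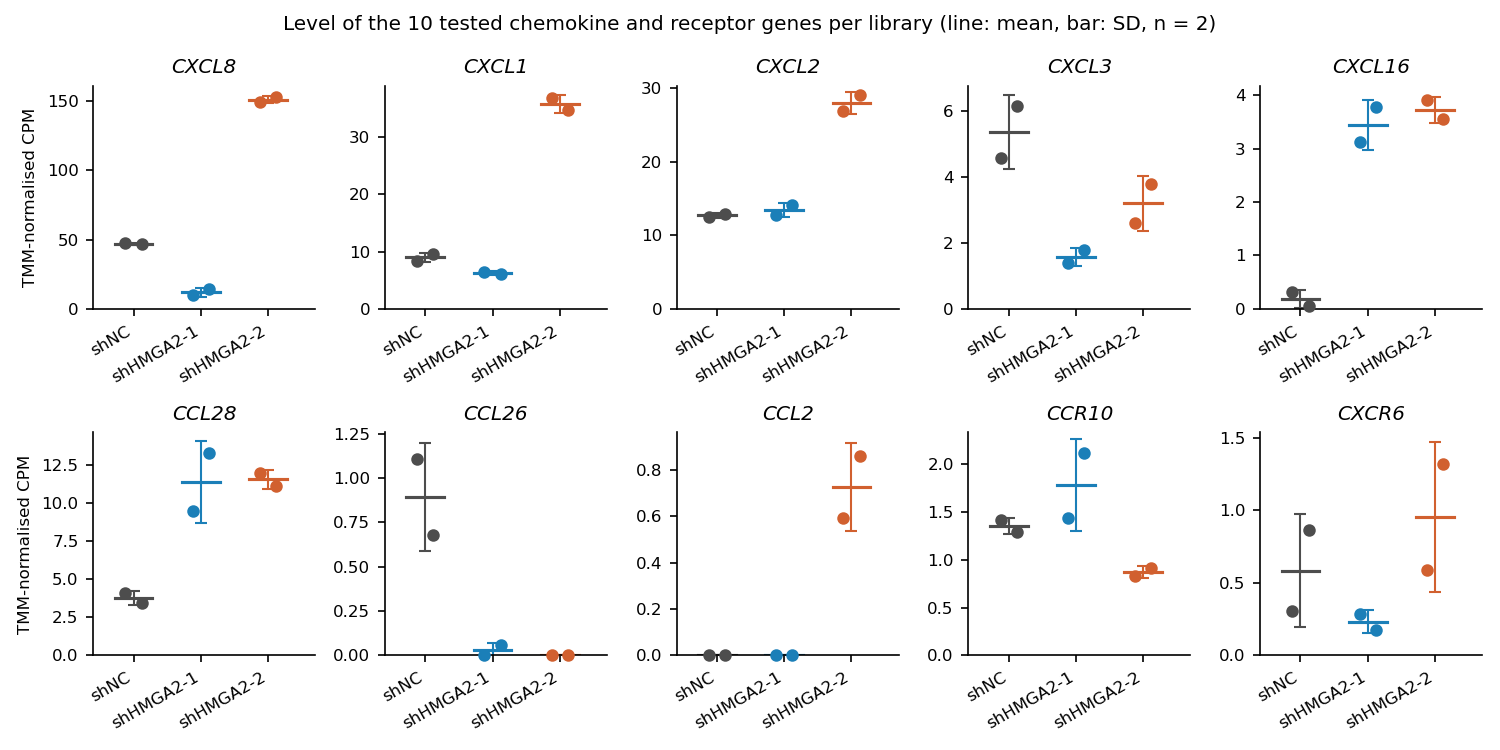
Each panel gives the TMM-normalised CPM of 1 tested gene, with a point per library, a line for the mean and a bar for the SD of the 2 libraries of a line; the vertical scales differ. CXCL8, CXCL1 and CXCL2 are highest in shHMGA2-2, CXCL16 and CCL28 are higher in both knockdown lines than in shNC, and CCL26 is at or near 0 in both.

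The chromosome 4 cluster runs over 358.678 kb from CXCL8 to CXCL2. Between them lie CXCL6, CXCL1, the pseudogene CXCL1P1, CXCL5 and CXCL3, and the platelet chemokines PF4V1, PF4 and PPBP, which the symbol rule does not cover. CXCL5, CXCL6, CXCL1P1, PF4, PF4V1 and PPBP were at 0 counts in all 6 libraries. The CXCL5 and CXCL6 promoters hold the same NF-kB core, and its part in these levels was not tested. Genes with reads and genes without lay interspersed along the cluster. MTHFD2L, a mitochondrial folate enzyme gene whose start lies 373.7 kb from that of CXCL8, showed log2 differences of 0.08 (SE 0.10) in shHMGA2-1 and -0.14 (SE 0.11) in shHMGA2-2 (edgeR, adjusted p = 0.616 and 0.253).

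**Figure D3:**
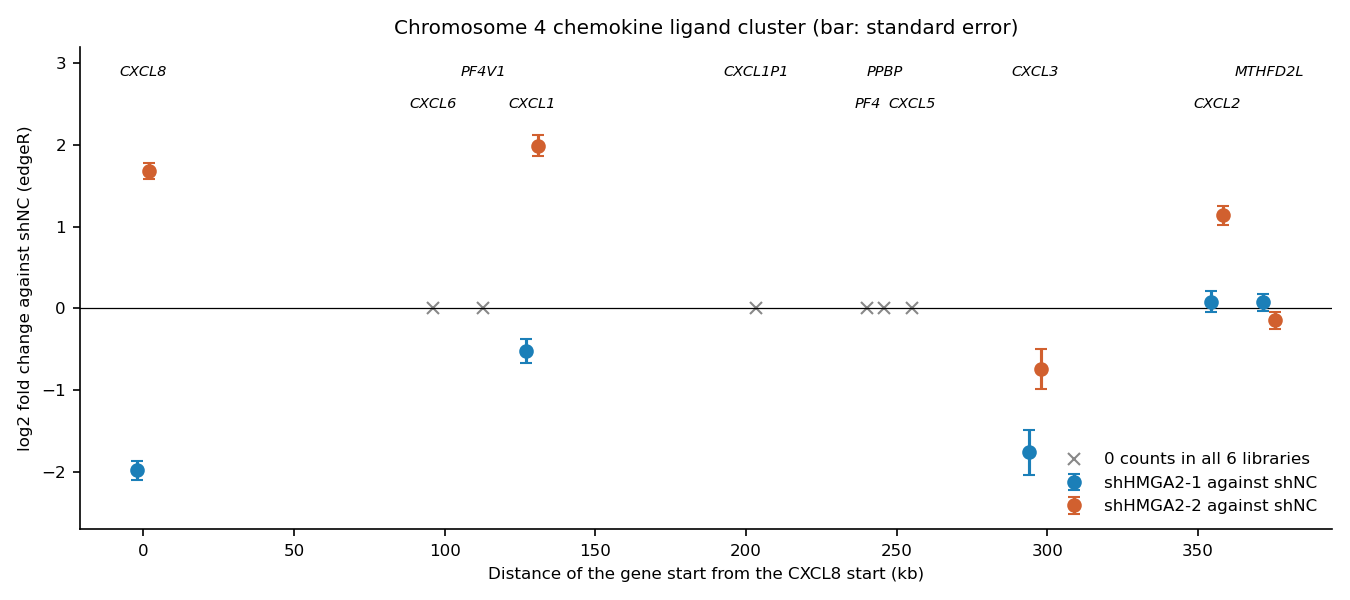
Points give the log2 fold change of each gene of the cluster against shNC, with the standard error as a bar, by the distance of its start from that of CXCL8 in kb; points of the 2 knockdown lines are set slightly apart. Crosses mark genes at 0 counts in all 6 libraries. The shHMGA2-2 points of CXCL8, CXCL1 and CXCL2 lie at 1.68, 1.99 and 1.14, that of CXCL3 at -0.74 and that of MTHFD2L, just outside the cluster, at -0.14.

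CXCL16 and CCL28 rose in both knockdown lines by like amounts. CXCL16, a transmembrane ligand that is shed from the cell and binds CXCR6, had 5 and 1 counts (shNC), 54 and 64 (shHMGA2-1) and 66 and 62 (shHMGA2-2). Every knockdown library was above both controls, which lay near the limit of detection. It rose by 4.17 (SE 0.47) in shHMGA2-1 and by 4.28 (SE 0.46) in shHMGA2-2 on the log2 scale (edgeR, adjusted p = 1.45e-07 and 2.09e-08). The controls set this size: the values were 5.64 and 5.75 without shNC replicate 1 and 3.45 and 3.57 without shNC replicate 2. The lines differed from each other by 0.12 (SE 0.27, adjusted p = 0.751). CXCL16 overlaps MED11 on the opposite strand by 76 bases, and MED11 had 195 to 362 counts.

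CCL28, a mucosal epithelial chemokine that binds CCR10 and CCR3, gave 67 and 56 counts in the controls, 165 and 226 with shHMGA2-1 and 203 and 194 with shHMGA2-2. All 4 knockdown libraries exceeded the controls and the knockdown lines overlapped. The rise was 1.59 (SE 0.19), or 3.01-fold, in shHMGA2-1 and 1.61 (SE 0.19), or 3.05-fold, in shHMGA2-2 (edgeR, adjusted p = 4.70e-07 and 1.10e-07). Between the knockdown lines the log2 difference was 0.02 (SE 0.16, adjusted p = 0.934).

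CCL26 fell to or under the limit of detection in both knockdown lines. This gene, also called eotaxin-3, encodes an eosinophil attractant that binds CCR3, and it had 18 and 11 counts (shNC), 0 and 1 (shHMGA2-1) and 0 and 0 (shHMGA2-2). In FPKM the controls were at 1.51 and 0.92, and no knockdown library exceeded 0.08. With 29 counts against 1, it was 30.6 times lower in shHMGA2-1 (exact 95% interval for counting error 5.08 to 1251, edgeR adjusted p = 0.000796). It was at least 5.03-fold lower in shHMGA2-2, set against 3 counts per library (edgeR, adjusted p = 9.59e-05). CCL26 and CCL2 passed the count filter, which asks for about 10 counts in 2 libraries, only through the line in which they were read. CXCL16 passed it through the 4 knockdown libraries, and CXCR6 through both shHMGA2-2 libraries and 1 control.

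CCL2, a monocyte attractant that binds CCR2, was read in shHMGA2-2 alone, with 10 and 15 counts there and 0 in the other 4 libraries. It was at least 3.93-fold higher than in shNC and at least 4.10-fold higher than in shHMGA2-1 (edgeR, adjusted p = 0.000307 and 0.000323). Its level of 0.31 and 0.47 FPKM in shHMGA2-2 was the lowest of the ligands called higher there.

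Receptors were few. CCR10, which binds CCL27 and CCL28, had 23 and 21 counts in the controls, 25 and 36 with shHMGA2-1 and 14 and 16 with shHMGA2-2. Both shHMGA2-2 libraries were below all others, and the difference from shNC was -0.63 (SE 0.42, adjusted p = 0.203). It was 1.02 lower on the log2 scale in shHMGA2-2 than in shHMGA2-1 (SE 0.40, edgeR adjusted p = 0.0362). That call rested on single libraries: leaving out shHMGA2-1 replicate 2 gave an adjusted p of 0.263, leaving out either shHMGA2-2 library gave 0.141 or 0.101, and DESeq2 gave 0.133, over a range of 0.0215 to 0.263. CCR10 overlaps CNTNAP1 on the opposite strand, which had 647 to 1021 counts, and without a known strand setting reads of the 2 genes cannot be told apart.

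CXCR6, the receptor of CXCL16, had 5 and 14 counts (shNC), 5 and 3 (shHMGA2-1) and 10 and 23 (shHMGA2-2). The lower control had the same count as the higher shHMGA2-1 library, and the controls overlapped shHMGA2-2, with log2 differences of -1.30 (SE 0.73, adjusted p = 0.187) and 0.71 (SE 0.57, adjusted p = 0.301). It was 2.01 (SE 0.67) higher in shHMGA2-2 than in shHMGA2-1 in edgeR (adjusted p = 0.0152). Leaving out shHMGA2-1 replicate 2 gave an adjusted p of 0.0794, leaving out shHMGA2-2 replicate 2 gave 0.257 (log2 1.31) and DESeq2 gave 0.0644, over a range of 0.00784 to 0.257. CXCR6 lies inside FYCO1, a gene of the opposite strand with 647 to 916 counts.

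The other 7 genes above 3 counts were too low for the main test. ACKR4, an atypical receptor that takes up CCL19, CCL21 and CCL25, had 0 and 0 counts in the controls, 11 and 6 with shHMGA2-1 and 6 and 9 with shHMGA2-2. Every knockdown library was above both controls. Set against 3 counts per library, the mean of the line was at least 2.67-fold higher in shHMGA2-1 and at least 2.36-fold higher in shHMGA2-2. When no filter was set and 31871 genes were tested, it passed in both lines (edgeR, adjusted p = 0.00142 and 0.00134). Of its sequences of 50 bases, 34.1% occur in another gene, mostly the pseudogene CCRL1P1, and it lies inside ACAD11, which had 19 to 40 counts.

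CXCR4, the receptor of CXCL12, had 0 and 1 counts (shNC), 4 and 5 (shHMGA2-1) and 5 and 11 (shHMGA2-2). With 16 counts against 1 it was 15.1 times higher in shHMGA2-2 (exact 95% interval 2.35 to 635), and with 9 against 1 it was 8.52 times higher in shHMGA2-1 (1.18 to 374). Without a filter it passed in shHMGA2-2 (edgeR, adjusted p = 0.0159) and not in shHMGA2-1 (adjusted p = 0.180).

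The remaining 5 passed in no comparison without a filter. CCL5, a T cell attractant, ranged from 1 to 6 counts. CXCL11, an interferon-induced ligand of CXCR3, and CCR7, the receptor of CCL19 and CCL21, ranged from 0 to 4. CCR1, a receptor of CCL3 and CCL5, and ACKR3, an atypical receptor of CXCL12, ranged from 0 to 5, and each exceeded 3 counts in 1 shHMGA2-2 library.

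**Figure D4:**
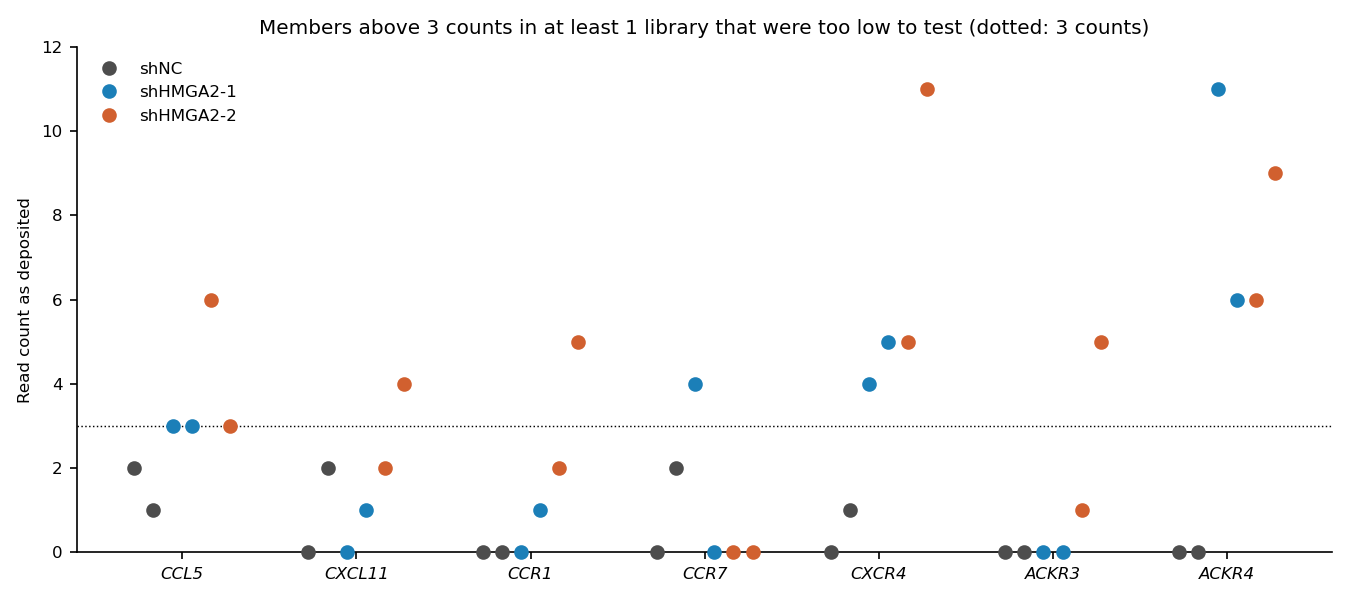
Points give the deposited read count of the 7 genes that exceeded 3 counts in at least 1 library but were not tested, with 2 points per line for each gene, coloured by line, and a dotted line at 3 counts. All 4 knockdown libraries of ACKR4 and of CXCR4 lie above the limit and all controls below it, and no gene exceeds 11 counts.

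Counted over the 10 tested genes, shHMGA2-1 had 2 higher (CXCL16, CCL28) and 3 lower (CXCL8, CXCL3, CCL26) than shNC. Over all 16110 genes tested, 4.89% were called higher and 3.59% lower in this comparison. In shHMGA2-2, 6 were higher (CXCL8, CXCL1, CXCL2, CXCL16, CCL28, CCL2) and 1 was lower (CCL26), beside 11.7% and 9.65% of all genes. The 2 comparisons share the shNC libraries. Of the member genes called here and in the comparisons below, CCL2, CCL26 and CXCL16 passed the count filter only through lines in which they were higher. CXCR6 passed it through both shHMGA2-2 libraries and 1 control. Their calls are therefore not independent of the filter. Medians of the log2 differences were -0.52 in shHMGA2-1 over the 9 genes read in either line and 1.37 in shHMGA2-2 over 10, with CCL2 and CCL26 set at their bounds where a line was at 0, beside 0.01 and 0.03 over all genes.

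The direct comparison of the knockdown lines called 7 of the 10. CXCL8, CXCL1, CXCL2, CXCL3, CCL2 and CXCR6 were higher and CCR10 was lower in shHMGA2-2 than in shHMGA2-1, and all genes were called in 7.83% and 7.27% of cases. The median difference was 1.06 over 9 genes, beside -0.002 over all genes. Without shHMGA2-2 replicate 2 the count was 4.

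With the 4 knockdown libraries taken as a single group, 2 genes were higher (CXCL16 and CCL28) and 1 was lower (CCL26) than shNC, beside 1.72% and 1.37% of all genes. The log2 differences were 4.23 (SE 0.53), 1.60 (SE 0.22) and -5.35 (SE 0.90), with adjusted p of 0.0122, 0.0149 and 0.0271 in edgeR. The last of these, fitted against 1 count, corresponds to a ratio of counts of 61.3 (exact 95% interval 10.2 to 2503). CXCL8 differed by 0.79 (SE 1.16, adjusted p = 0.691), CXCL1 by 1.23 (SE 0.87, adjusted p = 0.399) and CXCL2 by 0.70 (SE 0.39, adjusted p = 0.293), the spread now including the difference between the lines. The calls of this comparison depended on having both controls. Without shNC replicate 1 or without shNC replicate 2, which left 1 control, all 3 were lost, as were nearly all calls over all genes. The log2 differences were then 5.70 and 3.51 for CXCL16, 1.73 and 1.48 for CCL28 and -4.97 and -5.67 for CCL26. CXCL16 and CCL28 stayed called whichever knockdown library was left out. CCL26 was lost in each of those cases too, with an adjusted p of 0.0599 to 0.0738 in edgeR (0.00555 to 0.0954 over all alternatives with both controls). In both cases without a control 0 genes were called in edgeR, with 3 at an unadjusted p under 0.05, while DESeq2 with all libraries called 3 and limma 2 or 3 by pseudocount.

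**Figure D5:**
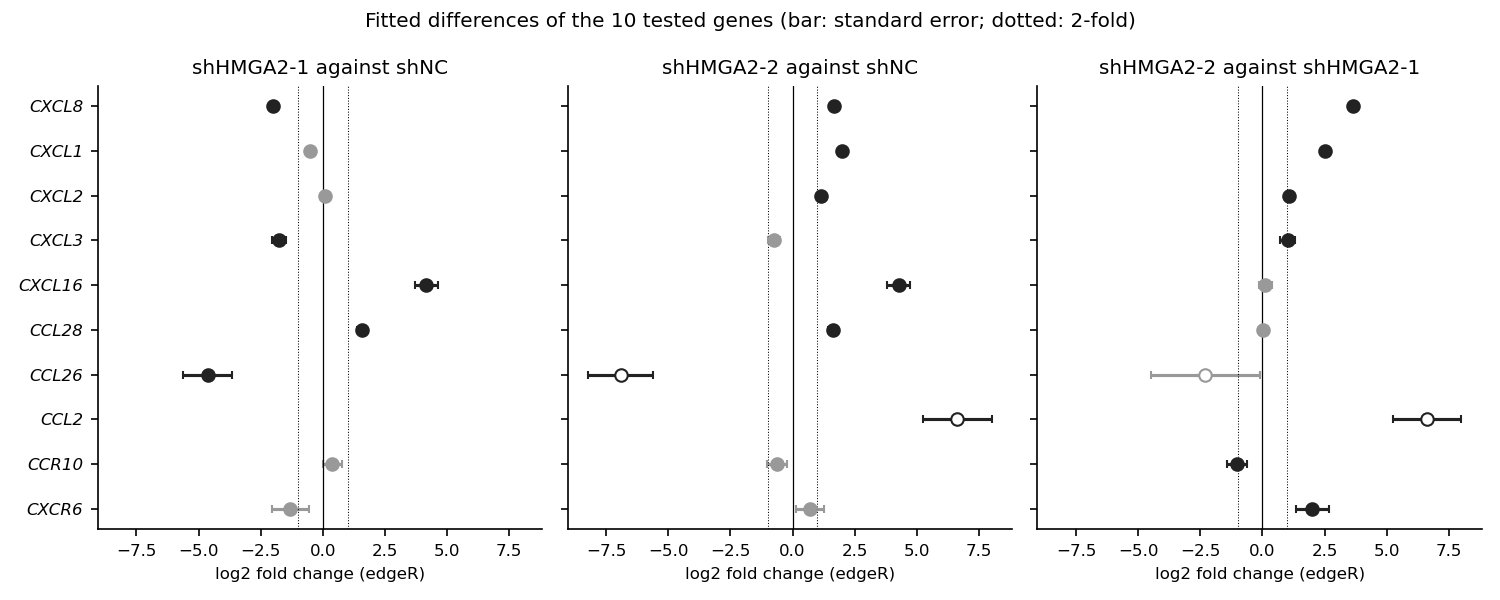
Points give the log2 fold change of the 10 tested genes in the 3 comparisons of single lines, with the standard error as a bar and dotted lines at a 2-fold change. Black points were called and grey points were not, and open points mark a line at 0 counts, whose fitted value is no bound; CCL2 is absent from the left panel because both lines were at 0. CXCL8 lies at -1.98, 1.68 and 3.66 in the 3 panels, and CXCL16 and CCL28 lie to the right in the first and second panels and near 0 in the last.

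Other genes of the chemokine system were taken from lists. Of 11 tested relatives that the symbol rule does not cover, 0 were higher and 3 lower in shHMGA2-1, and 1 was higher and 2 lower in shHMGA2-2, with median log2 differences of -0.13 and 0.08. Over all genes tested, 4.89% were higher and 3.59% lower in shHMGA2-1 and 11.7% and 9.65% in shHMGA2-2. PITPNM3, a membrane protein described as a receptor of CCL18, had 292 and 334 counts in the controls, 88 and 89 with shHMGA2-1 and 70 and 68 with shHMGA2-2. It fell in both lines, with log2 changes of -1.90 (SE 0.15) and -2.26 (SE 0.16) (edgeR, adjusted p = 6.55e-10 and 1.28e-11). CCRL2, an atypical receptor that binds chemerin, had 84 and 98, 27 and 33, and 75 and 86 counts, and it fell by 1.67 (SE 0.25) in shHMGA2-1 (edgeR, adjusted p = 7.93e-06). CMTM3, of the chemokine-like factor family, fell by 1.35 (SE 0.12) in shHMGA2-2 (adjusted p = 1.26e-09). CD74, the receptor of the cytokine MIF and the invariant chain of MHC class II, had 6 and 4, 0 and 1, and 3134 and 3449 counts. It was thus read almost only in shHMGA2-2, where it rose by 9.25 (SE 0.17, edgeR adjusted p = 1.14e-22). It is counted among the 3 lower in shHMGA2-1, at -3.11 (SE 0.97, edgeR adjusted p = 0.0155). That fitted value rests on 0 and 1 counts against 6 and 4, near the limit of detection. CD74 passed the count filter only through shHMGA2-2, so its calls are not independent of it.

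Of 50 tested genes that carry the signal of chemokine receptors, 3 were higher and 0 lower in shHMGA2-1 and 4 were higher and 9 lower in shHMGA2-2, with medians of -0.16 and -0.29, beside 4.89% and 3.59% of all genes in shHMGA2-1 and 11.7% and 9.65% in shHMGA2-2. GNG7, a G protein gamma subunit, had 5 and 5 counts (shNC), 50 and 69 (shHMGA2-1) and 93 and 102 (shHMGA2-2), and it rose by 3.46 (SE 0.39) and 4.17 (SE 0.36) (edgeR, adjusted p = 1.70e-07 and 5.16e-10). WAS, an activator of actin assembly, had 2 and 5, 20 and 9, and 42 and 57 counts. It rose by 1.93 (SE 0.64) and 3.69 (SE 0.53) (edgeR, adjusted p = 0.0216 and 1.77e-06). RGS4, which shortens G protein signals, had 23 and 19, 33 and 35, and 425 and 405 counts and rose by 4.22 (SE 0.19) in shHMGA2-2 (edgeR, adjusted p = 2.74e-15). PTK2B, a focal adhesion kinase relative, had 2 and 2, 5 and 2, and 23 and 25 counts. It rose in shHMGA2-2 by 3.43 (SE 0.66, edgeR adjusted p = 9.46e-05). GNG7, WAS and PTK2B passed the count filter only through lines in which they were higher, so their calls are not independent of it. PLCB1, a phospholipase C, had 471 and 468, 349 and 358, and 6 and 14 counts and fell by 5.62 (SE 0.21) in shHMGA2-2 (edgeR, adjusted p = 7.10e-17). The other 8 that fell there, named after their values were seen, were PIK3CG (log2 -9.37, SE 0.34), RGS10 (-2.96, SE 0.09), RGS2 (-2.24, SE 0.19), RAC2 (-1.37, SE 0.09), PIK3CA (-1.35, SE 0.09), GNB4 (-1.19, SE 0.08), TIAM1 (-1.19, SE 0.15) and PXN (-1.07, SE 0.07).

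Among 22 tested genes that cleave chemokines or hold them at the cell surface, 2 were higher and 3 lower in shHMGA2-1 and 2 were higher and 5 lower in shHMGA2-2, with medians of -0.22 and -0.16, beside the same 4.89% and 3.59% and 11.7% and 9.65% of all genes. MMP1, a collagenase that can cleave chemokines, had 155 and 165, 53 and 53, and 5 and 2 counts, and it fell in both, with changes of -1.67 (SE 0.21) and -5.54 (SE 0.34) (edgeR, adjusted p = 7.41e-07 and 7.20e-13). PLAU, the urokinase gene, rose by 1.61 (SE 0.08) and 1.82 (SE 0.08) (adjusted p = 3.27e-14 and 3.79e-16). SDC4, a carrier of heparan sulphate, which holds chemokines at the surface, had 2421 and 2324, 2018 and 2014, and 9749 and 9338 counts and rose by 1.93 (SE 0.07), while SDC2, another carrier, fell by 2.54 (SE 0.11) and the synthesis gene EXT1 fell by 1.02 (SE 0.07) (edgeR, adjusted p = 1.15e-17, 1.45e-15 and 1.93e-12). The other genes of this list that fell in shHMGA2-2, named after their values were seen, were the carriers GPC4 (log2 -8.03, SE 0.44) and SDC1 (-1.28, SE 0.08). Named likewise, GPC4 rose in shHMGA2-1 (1.03, SE 0.15), where GPC6 (-1.19, SE 0.21) and CTSD (-1.11, SE 0.08) fell.

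Of 26 tested NF-kB subunits, inhibitors and targets, 1 was higher and 5 lower in shHMGA2-1 and 6 were higher and 4 lower in shHMGA2-2. Against shHMGA2-1, 11 were higher and 3 lower in shHMGA2-2, and the medians were -0.45, 0.27 and 0.83 in the 3 comparisons. All genes were called higher and lower in 4.89% and 3.59%, 11.7% and 9.65%, and 7.83% and 7.27% of cases in the same order. BIRC3, an inhibitor of apoptosis, had 2525 and 2411 counts in the controls, 3153 and 3767 with shHMGA2-1 and 10396 and 9646 with shHMGA2-2, and it rose by 1.94 (SE 0.08) in shHMGA2-2 (edgeR, adjusted p = 3.38e-16). TRAF1, an adaptor of TNF receptors, had 272 and 234, 78 and 59, and 179 and 158 counts and fell by 1.96 (SE 0.17) in shHMGA2-1 (adjusted p = 2.59e-09). The cytokine genes IL6 and CSF3 fell in both lines: IL6 had 117 and 93, 41 and 50, and 28 and 37 counts, with changes of -1.28 (SE 0.24) and -1.77 (SE 0.25) (edgeR, adjusted p = 0.000137 and 1.41e-06). CSF3 had 29 and 14, 3 and 5, and 3 and 1 counts. It changed by -2.47 (SE 0.62) and -3.42 (SE 0.71) (edgeR, adjusted p = 0.00333 and 0.000218). CSF3 passed the count filter only through shNC, where it was higher, so its calls are not independent of it. PTGS2, the inducible cyclooxygenase, had 81 and 102, 41 and 78, and 2 and 4 counts and fell by 4.95 (SE 0.46) in shHMGA2-2 (edgeR, adjusted p = 1.50e-09). The members of the list that rose in shHMGA2-2 beside BIRC3, named after their values were seen, were the inhibitors NFKBIA (log2 1.51, SE 0.09) and TNFAIP3 (1.32, SE 0.13), the subunits RELB (1.74, SE 0.12) and NFKB2 (1.01, SE 0.10) and the cytokine CSF2 (1.62, SE 0.25). Named likewise, the cytokine IL1B fell in shHMGA2-2 (-2.16, SE 0.55) and ICAM1, a leukocyte adhesion gene, was the gene of the list that rose in shHMGA2-1 (1.20, SE 0.10).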

How the data were processed

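RNA from 6 MDA-MB-231 libraries (shNC, shHMGA2-1 and shHMGA2-2, 2 each, grouped by sample title) was compared. Library names of the controls read WT where titles read shNC, and those of shHMGA2-1 carry SH2; titles were followed. The authors deposited raw counts per gene and FPKM values. The FPKM values, which the authors made from count, exonic size and library total, were recomputed for 100% of values within a tolerance of 0.0051. The submitters' processing notes name HISAT2 2.2.1, HTSeq 0.6.1 and GRCh38.p13; strand setting and annotation are not given in the sources used here. Columns not used numbered 0.

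Counts were tested with edgeR 4.0.16 in R 4.3.3: libraries were scaled by TMM (factors 0.958 to 1.05), low genes were removed by filterByExpr with the line as group, and quasi-likelihood p-values of 16110 genes were adjusted by Benjamini-Hochberg. Each line was compared in a model with 3 groups (common biological coefficient of variation 0.0583), and all 4 shHMGA2 libraries with shNC in a model with 2 groups (0.291). CPM are TMM-normalised. A call had an adjusted p under 0.05 and at least a 2-fold change, the thresholds of the study, which used DESeq2. A group at 0 counts was set to 3 counts per library for bounds. Intervals are exact 95% intervals and, like the limit of 3 counts, cover counting error only, since reads carry no molecular identifiers. The functions were tested on simulated counts. Precision was limited by 2 libraries per line.

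All members above 3 counts are named, with counts for those called or with a mean FPKM of at least 1 in any line; up to 5 genes per list are named by their change in all shHMGA2 libraries among those called. Members, lists and rules were chosen with earlier results of these data known. Alternatives were DESeq2 1.42.0, upper quartile scaling, no filter, a mean FPKM of at least 1, limma 3.58.1 on log2(FPKM + 1) and log2(FPKM + 0.1), the replicate number as a block, and each library left out. Promoters came from RefSeq and were searched in python 3.11.15 with biopython 1.88. Promoters of CXCL16, CCR10, ACKR4, CCL2, CCL5, ACKR3 and CCR7, and proteins, were not used here.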

Additional observations from a re-analysis of the deposited data

Results flagged for a closer look

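The 7 genes below were picked out because the effects of the 2 hairpin lines, measured against the same controls, differed from each other in the direct comparison of the lines in edgeR. The log2 differences of shHMGA2-2 from shHMGA2-1 were 3.66 (SE 0.11) for CXCL8, 2.51 (SE 0.13) for CXCL1, 1.06 (SE 0.12) for CXCL2, 1.02 (SE 0.30) for CXCL3, 2.01 (SE 0.67) for CXCR6 and -1.02 (SE 0.40) for CCR10. For CCL2 the fitted value of 6.63 (SE 1.37) is set against a line at 0 counts and is no bound, while against 3 counts per library it was at least 4.10-fold higher. Adjusted p values were 3.07e-18, 5.29e-14, 5.83e-08, 0.00598, 0.0152, 0.0362 and 0.000323 in edgeR, in the same order with CCL2 last. All of these calls except those of CXCL8 and CXCL1 were lost in at least 1 alternative. DESeq2 gave adjusted p of 0.0644 for CXCR6 and 0.133 for CCR10. Under limma on log2(FPKM + 1) the log2 difference of CXCL3 was 0.54, under 2-fold. For CXCL8 every library of 1 line lay below and every library of the other above the controls. Each knockdown line was a single clone, and whether hairpin or clone accounts for the differences cannot be told apart.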

How the results depend on the processing

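Over the alternatives, 463 of 500 values of single genes stayed on the same side of the thresholds, 36 kept direction but no longer passed, 1 newly passed and 0 called values reversed. Of the 463, 15 had another sign than in the main comparison or were at 0 in it, all of them uncalled, among them CXCL8 (-0.06 in limma on log2(FPKM + 0.1)), CCR10 and CXCR6 in all shHMGA2 against shNC. Requiring a mean FPKM of at least 1 left 12036 genes to test, with 5 members among them where the main test had 10. Of the 5 members, 3 were called for shHMGA2-1 against shNC, 4 for shHMGA2-2 against shNC, 4 for shHMGA2-2 against shHMGA2-1 and 1 for all shHMGA2 against shNC. limma on log2(FPKM + 1) gave 3 calls in the first and 3 in the third of these, and on log2(FPKM + 0.1) 4 in the third; a pseudocount shrinks the fold change of low genes. Leaving out single libraries gave 5 to 5, 7 to 8, 4 to 7 and 0 to 2 calls in the 4 comparisons. The count of 4 came without shHMGA2-2 replicate 2, and those of 0 when either shNC library was left out.

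With the replicate number as a block, 0 members passed in the comparison of all shHMGA2 with shNC (CXCL16, CCL28 and CCL26 with adjusted p of 0.0530, 0.0642 and 0.0954 in edgeR, and 4 genes at an unadjusted p under 0.05), 6 in shHMGA2-2 against shHMGA2-1, where CCR10 was lost (0.0531), and the count did not change in the other 2. The numbers do not pair the libraries: correlations of replicate differences between lines were -0.10 to 0.002. Over all genes the comparison of all shHMGA2 gave 498 calls, 138 with the block, 4 when either shNC library was left out, 1007 in DESeq2, 192 in limma on log2(FPKM + 1) and 291 at a mean FPKM of at least 1. In the same 2 settings, limma and the FPKM filter, calls were 294 and 579 of 1367 for shHMGA2-1 against shNC, 1226 and 1729 of 3432 for shHMGA2-2 against shNC, and 785 and 1168 of 2432 between the knockdown lines. Upper quartile scaling moved the median of all genes by 0.115 in shHMGA2-2 against shNC, and CCR10 then missed the 2-fold threshold between the knockdown lines (log2 -0.97). The cause of these changes was not tested. Depth limits the 7 genes that were read but not tested, none of which exceeded 11 counts.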

Other observations

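Beyond the cluster on chromosome 4, 4 genes within 500 kb of its ends that are not chemokines were tested. They are named here after their values were seen. EREG and AREG, which encode ligands of the EGF receptor and start 624.6 and 704.6 kb from CXCL8, were lower in shHMGA2-1 than in shNC, by log2 differences of -1.10 (SE 0.23) and -1.59 (SE 0.27) (edgeR, adjusted p = 0.000536 and 5.48e-05). EREG rose by 2.19 (SE 0.16) in shHMGA2-2 (adjusted p = 3.20e-11), and for AREG the difference of 0.63 (SE 0.21, adjusted p = 0.0137) was under 2-fold. AFP, the alpha-fetoprotein gene, had at most 20 counts and was lower in shHMGA2-2 (edgeR, adjusted p = 1.77e-05). MTHFD2L did not pass in either line.

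Of the leukocyte markers, HCLS1 had 21 and 15 counts in the controls and was at 0 in all 4 knockdown libraries. CORO1A had 7 and 10 counts (shNC), 38 and 70 (shHMGA2-1) and 17 and 20 (shHMGA2-2). Of the 5 endothelial markers, PECAM1 had 14 and 11 counts in shNC and 0 to 2 in the knockdown libraries. KDR, the most read of them, had 58 and 57 counts (shNC), 60 and 46 (shHMGA2-1) and 44 and 61 (shHMGA2-2). CDH5, TEK and VWF had at most 4, 2 and 3 counts. Their part in the levels of the chemokine genes was not tested.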
